A study of Mus musculus with 2 samples.

Results

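The genes described here encode clotting factors, their inhibitors, fibrinolytic enzymes and the components, regulators and receptors of complement. The list holds 47 genes. Each was represented by its brightest probe set, the one with the highest mean over both arrays among probe sets that the platform annotation assigns to that gene alone. Of the 47 genes, 44 had such a probe set and 43 passed a filter on low signal, out of 11693 genes of the whole array that passed it. Cpb2 and C3 had no probe set named for them in the annotation used here, C4b shared its probe set with C4a, and C5ar1 was below the filter. The 47 genes were grouped as 38 made mainly by hepatocytes and 6 made mainly by macrophages (C1qa, C1qb, C1qc, Cfp, C3ar1 and C5ar1). The other 3 were grouped as made mainly by endothelial and other non-parenchymal cells (F3, Thbd and Tfpi). These groups were set beforehand and were not measured here.

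Precancerous liver was compared between 2 mouse genotypes, labelled Pik3caTg;Kdm3aWT and Pik3caTg;Kdm3aKO. Both carried a hepatocyte-specific transgene of Pik3ca, the catalytic subunit gene of phosphoinositide 3-kinase, so no liver without that transgene was measured; the labels name neither the form and promoter of the transgene nor the age and sex of the mice. The genotypes differed in Kdm3a, wild type or knockout, the gene of an enzyme that demethylates histone H3 at lysine 9, and all mice were fed chow. The labels do not limit the Kdm3a knockout to hepatocytes. The comparison addresses how the liver transcriptome of this transgenic line differs with loss of Kdm3a. Each genotype was measured on 1 Affymetrix array, so no test was possible, differences have no error between animals, and the number of arrays limits the precision. Whether an array holds RNA of 1 mouse or of several pooled is not stated.

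Clotting is a cascade of serine proteases, made by hepatocytes and released as inactive precursors, that ends in thrombin and the conversion of fibrinogen to fibrin. Inhibitors made by the same cells and by endothelium hold it in check, and plasmin dissolves the clot. Complement is started by C1q bound to antibody, by mannose-binding lectins on sugars, or by slow turnover of C3, and all of these routes lead to C3 cleavage and to a pore of terminal components in the target membrane. The liver makes most of the plasma pool of these proteins, whereas C1q, properdin and the receptors for complement peptides are largely products of myeloid cells.

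The hepatocyte-made factors were modestly higher in the knockout array and the macrophage-made C1q chains and C3ar1 were lower. Of 35 hepatocyte-made genes that passed the filter, 31 had a positive log2 ratio of knockout over wild-type signal and 4 a negative one, with a median of 0.50. Of 5 macrophage-made genes, 5 had a negative ratio, with a median of -1.13, and the 3 genes of endothelial and other cells were also negative, with a median of -0.28. At a difference of at least 2-fold, which is the size called here, 3 of 35 hepatocyte-made genes were higher and 0 lower, and 3 of 5 macrophage-made genes were lower and 0 higher. Over all 11693 genes the median was -0.02, 3.83% were at least 2-fold higher and 8.96% at least 2-fold lower. Over the 20% of genes of highest signal (2339 genes), to which 33 of the 35 hepatocyte-made and 3 of the 5 macrophage-made genes belong, the median was 0.12, with 4.49% higher and 4.4% lower. With 3 genes past 2-fold, the hepatocyte-made count is too small to be read against these percentages, and the description of that group rests on its median. The macrophage-made counts rest on 5 genes made by the same cells, 3 of them chains of a single protein.

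**Figure D1:**
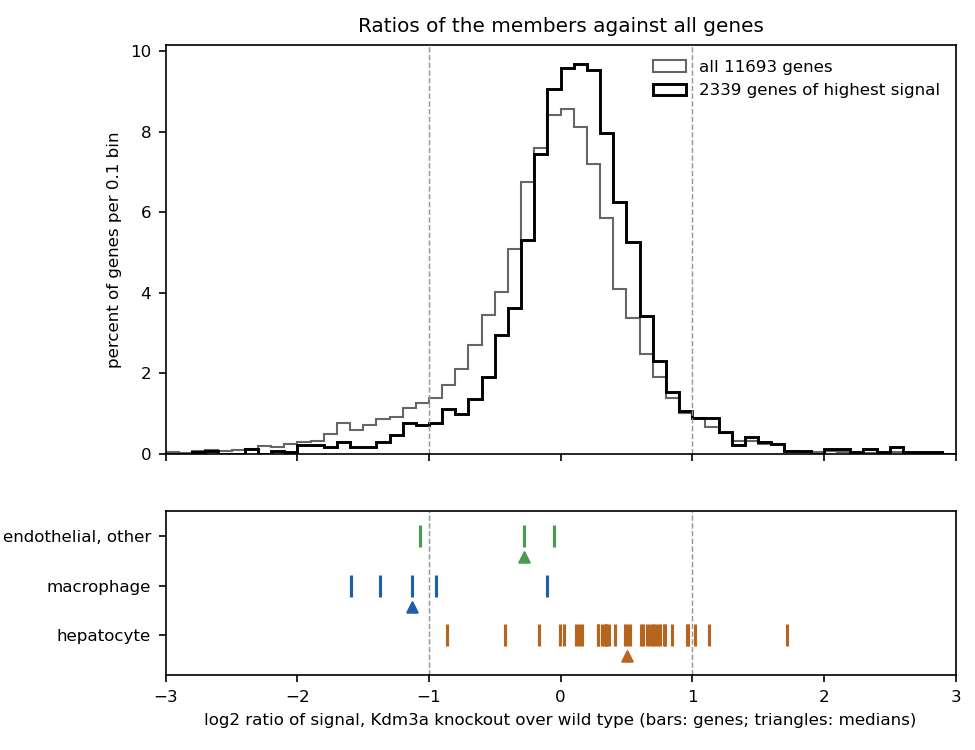
Upper panel, percent of genes in each bin of 0.1 log2 ratio (knockout over wild-type signal) for all 11693 genes and for the 2339 genes of highest signal. Lower panel, each member as a bar and each group's median as a triangle, at 0.50 for hepatocyte-made, -1.13 for macrophage-made and -0.28 for endothelial and other genes; dashed lines mark 2-fold.

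As a check of the labels, Kdm3a had signals of 719.9 (wild type) and 61.6 (knockout), an 11.7-fold difference on its 1 probe set; whether these probes lie in the deleted stretch is unknown here. Pik3ca had 1069 and 1107, a log2 ratio of 0.05, and its 5 probe sets ranged from -0.54 to 0.05. Of 10 hepatocyte markers fixed for this comparison 9 passed the filter, and Tf had no probe set of its own in the annotation used here. Alb had signals of 44119 (wild type) and 53356 (knockout). The summed signal of the 9 markers in the knockout array was 137% of wild type. All 9 had positive ratios, with a median of 0.40. Macrophage markers went both ways, with 9 of 16 at least 2-fold lower, 3 of 16 at least 2-fold higher and a summed signal of 61.4% of wild type. Of 9 endothelial markers 1 was 2-fold lower, with a summed signal of 91.6% of wild type, and 6 of 8 stellate cell and fibroblast markers were lower, with a summed signal of 43.4%. Of blood cell markers, 3 of 7 neutrophil, 4 of 7 platelet and megakaryocyte, 2 of 5 lymphocyte and 1 of 4 erythroid markers passed the filter. Of the 3 neutrophil markers 2 were at least 2-fold lower, S100a8 (-1.73) and S100a9 (-2.18), and Csf3r was positive (0.52). The summed signal of the 3 was 35.8% of wild type. Of the 4 platelet markers 1 was lower, Pf4 (-1.75), and 3 were positive, with a summed signal of 54.9%. Of the 3 lymphocyte and erythroid markers, 0 were past 2-fold. The part of these markers in the results below was not tested. In whole liver, fewer cells of a type and less RNA per cell cannot be told apart.

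Promoters are shown for the neighbouring fibrinogen genes and C1q genes, and for the members with the highest and lowest ratio, C8b and C3ar1. All 9 neighbouring pairs of members shared a sign, so the sign did not set the chosen genes apart. Each is the 250 bases before the annotated start, from RefSeq on build GRCm38.p6, written 5' to 3' on the gene's strand. The promoter table matched 35 of the 47 members, and C1qa is not among them. Capitals mark matches, on either strand, to 6 motifs. Those of hepatocyte factors were GTTAAT for the core of the HNF1 site and CAAAGTCCA for HNF4. Those of factors of the acute-phase response were TTGCNNAA for C/EBP and TTCNNNGAA for STAT. The motif GAGGAAG stood for PU.1, a myeloid factor, and the letters TATAAA for the TATA box.
Fga promoter, chr3:83025903-83026152, + strand: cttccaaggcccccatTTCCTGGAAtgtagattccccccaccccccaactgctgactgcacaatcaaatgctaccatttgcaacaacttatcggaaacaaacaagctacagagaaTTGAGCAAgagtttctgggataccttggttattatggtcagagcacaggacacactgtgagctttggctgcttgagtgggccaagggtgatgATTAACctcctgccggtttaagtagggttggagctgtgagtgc
Fgb promoter, chr3:83049864-83050113, - strand: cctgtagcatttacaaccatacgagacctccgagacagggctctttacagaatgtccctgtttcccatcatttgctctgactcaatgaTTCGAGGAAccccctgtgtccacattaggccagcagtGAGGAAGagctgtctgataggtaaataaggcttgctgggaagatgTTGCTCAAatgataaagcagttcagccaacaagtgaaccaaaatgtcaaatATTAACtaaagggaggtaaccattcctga
Fgg promoter, chr3:83007474-83007723, + strand: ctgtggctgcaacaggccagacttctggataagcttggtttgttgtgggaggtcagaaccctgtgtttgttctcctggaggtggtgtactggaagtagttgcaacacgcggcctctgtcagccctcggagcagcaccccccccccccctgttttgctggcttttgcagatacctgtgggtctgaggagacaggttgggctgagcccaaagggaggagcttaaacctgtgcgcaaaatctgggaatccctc
C8b promoter, chr4:104766067-104766316, + strand: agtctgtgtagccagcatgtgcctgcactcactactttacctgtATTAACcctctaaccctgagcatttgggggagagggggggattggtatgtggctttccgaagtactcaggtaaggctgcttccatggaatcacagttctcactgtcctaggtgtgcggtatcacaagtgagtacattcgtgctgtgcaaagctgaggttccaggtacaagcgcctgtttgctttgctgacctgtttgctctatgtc
C1qb promoter, chr4:136886201-136886450, - strand: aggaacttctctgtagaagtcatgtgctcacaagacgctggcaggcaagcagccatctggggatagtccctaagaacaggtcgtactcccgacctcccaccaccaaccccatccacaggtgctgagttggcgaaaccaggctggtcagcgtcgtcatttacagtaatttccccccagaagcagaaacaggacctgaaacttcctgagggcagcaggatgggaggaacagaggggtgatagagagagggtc
C1qc promoter, chr4:136892915-136893164, - strand: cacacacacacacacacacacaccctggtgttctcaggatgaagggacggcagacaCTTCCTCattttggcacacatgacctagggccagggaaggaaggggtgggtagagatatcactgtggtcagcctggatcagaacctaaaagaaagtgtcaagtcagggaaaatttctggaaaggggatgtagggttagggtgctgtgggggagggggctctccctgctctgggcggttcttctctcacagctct
C3ar1 promoter, chr6:122856158-122856407, - strand: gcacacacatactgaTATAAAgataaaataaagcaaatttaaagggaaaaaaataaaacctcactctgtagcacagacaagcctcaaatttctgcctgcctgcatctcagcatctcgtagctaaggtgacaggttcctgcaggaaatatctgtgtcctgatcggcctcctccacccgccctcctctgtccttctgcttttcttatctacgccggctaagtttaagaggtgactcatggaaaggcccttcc
Fga held an HNF1 core 43 bases before its start, a C/EBP match at 135 bases and a STAT match at 234 bases. Fgb held the same 3 motifs, at 29, 80 and 162 bases, and a PU.1 match at 125 bases. Fgg, whose ratio was nearly the same, held none of the 6. C8b held an HNF1 core at 206 bases, C1qc a PU.1 match at 194 bases and C3ar1 a TATA match at 235 bases, and C1qb held none of the 6.

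The window searched also took in the 50 bases after each start. Among 28 hepatocyte-made members in the table, the HNF1 core was present in 8 (28.6%), against 7.10% of all 32851 promoters. The C/EBP motif was present in 9 (32.1%), against 10.8%, and the STAT motif in 6 (21.4%), against 8.30%. The PU.1 motif was in 1 of 28 (3.57%), against 13.6% of all promoters, and the TATA box in 2 of 28 (7.14%), against 13.6%. Of 5 macrophage-made members in the table, 1 held the PU.1 motif (C1qc), 1 the HNF1 core (Cfp) and 1 the TATA box (C3ar1), and 0 held the C/EBP or STAT motif. The HNF4 letters were in none of the members and in 0.475% of all promoters. These are matches to letters in a short window and say nothing of binding.

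The contact and intrinsic factors start clotting on charged surfaces, and their log2 ratios spread from -0.86 to 1.02. F12, the Hageman factor that opens this route, had signals of 6222 (wild type) and 3418 (knockout). That is 1.82-fold lower, and F12 was the lowest of all 35 hepatocyte-made genes. Klkb1, plasma prekallikrein, which is cleaved by activated F12 and activates it in turn, had 5086 and 10341, which is 2.03-fold higher. F12 and its partner protease thus stood at opposite ends of this group, at 54.9% and 203% of wild type.

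F11, the protease downstream of F12 and the neighbour of Klkb1 in the genome, had signals of 1326 and 2299, a log2 ratio of 0.79. F9, which F11 activates, had 11259 and 12598, a log2 ratio of 0.16 that ranged from -0.03 to 0.35 over 6 ways of scaling the arrays. Kng1, the kininogen that carries prekallikrein, had 34806 and 37672. Its log2 ratio of 0.11 stood at 0.56 on a second probe set and was negative under 3 of 6 scalings, and mice have a close copy of this gene, Kng2, that the same probes could read. F9 and Kng1 therefore have no settled direction.

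**Figure D2:**
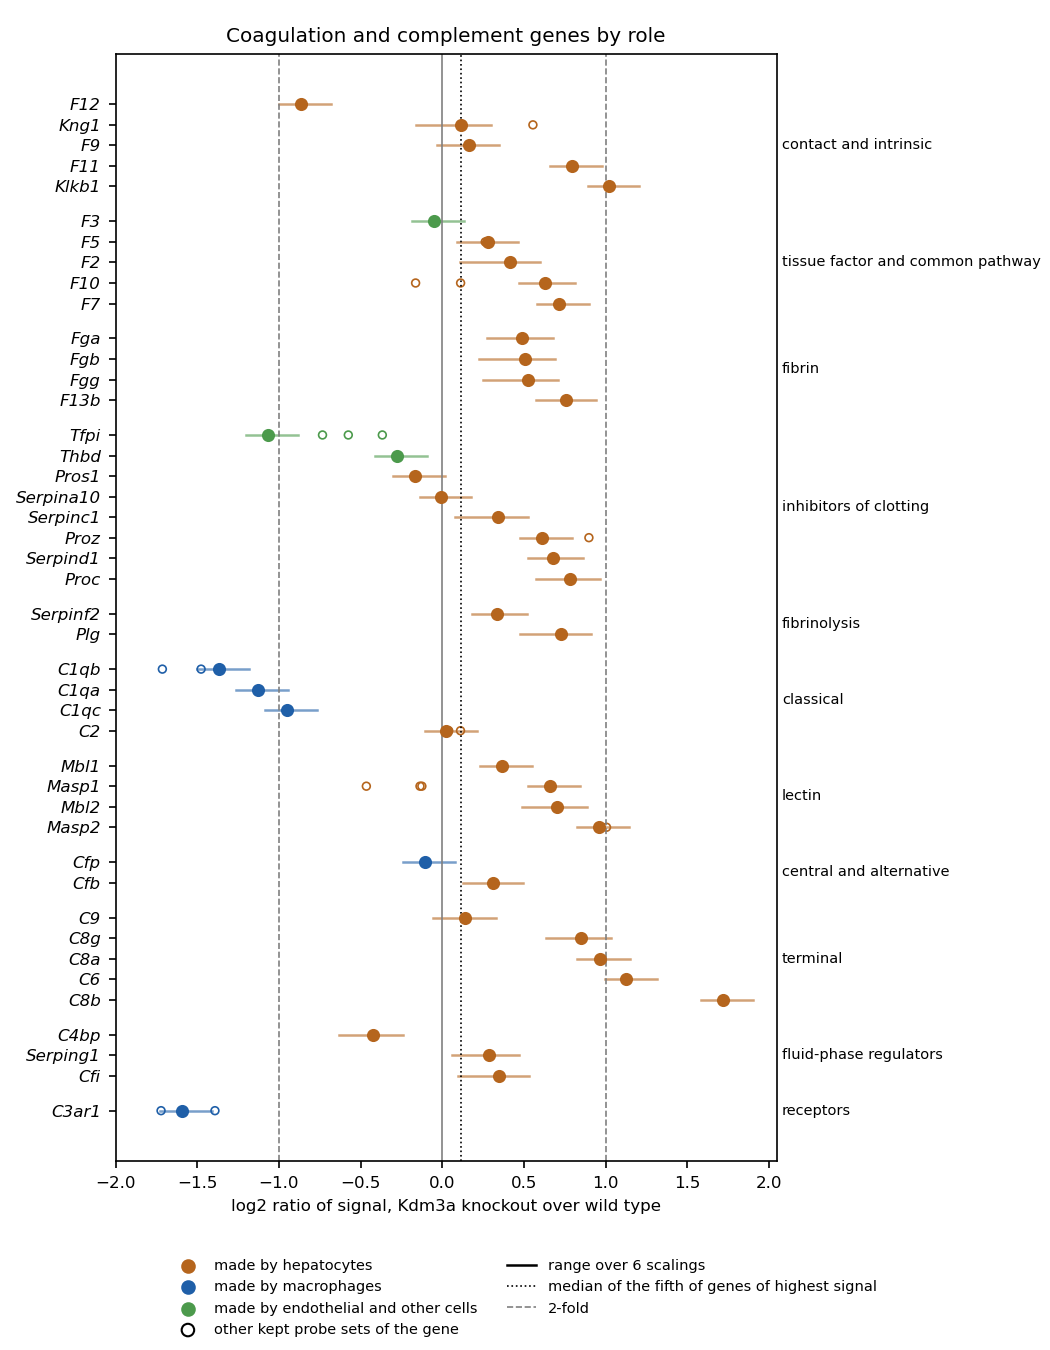
Log2 ratio of knockout over wild-type signal for the 43 genes that passed the filter, grouped by role; filled points are the brightest probe set, open points the gene's other kept probe sets, and lines the range over 6 scalings of the arrays. F12 (-0.86) and Klkb1 (1.02) lie apart within the contact group, and C8b (1.72) and C3ar1 (-1.59) are the extremes.

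The factors of the tissue factor route and the common pathway that hepatocytes make had ratios between 0.28 and 0.71. F7, the protease that binds tissue factor, had signals of 2483 (wild type) and 4070.0 (knockout), 1.64-fold higher. F2, prothrombin, had 29839 and 39719, 1.33-fold higher, and F5, the cofactor of the protease that cleaves prothrombin, had 11337 and 13785. The log2 ratio of F5 was 0.28, and its second probe set gave 0.26. F10, that protease, had 8694 and 13430.4 on its brightest probe set, a log2 ratio of 0.63. Its 2 dimmer probe sets gave -0.16 and 0.11, so its value depends on the probe set. F3, tissue factor itself, grouped here with genes of non-parenchymal cells, had 156.4 and 150.8, low signals that differed by 1.04-fold.

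Fibrinogen is built from 3 chains encoded side by side on chromosome 3, and the chains had nearly equal ratios. Fga, the alpha chain, had signals of 19579 (wild type) and 27523 (knockout). Fgb, the beta chain, had 36815 and 52230.5, and Fgg, the gamma chain, had 31566 and 45443. Their log2 ratios were 0.49, 0.50 and 0.53, so that all were about 1.41-fold to 1.44-fold higher. F13b, the carrier subunit of the enzyme that crosslinks fibrin, had 9391 and 15850.5, a log2 ratio of 0.76.

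Other neighbours in the genome lay close too. F7, F10 and Proz follow each other on chromosome 8, with log2 ratios of 0.71, 0.63 and 0.61. Over the 9 pairs of members with no protein-coding gene between them in the RefSeq gene table, both genes had the same sign in 9 pairs. Their ratios differed by 0.18 at the median, from 0.01 for Fga and Fgb to 0.75 for C8a and C8b. Most members are hepatocyte genes with positive ratios, so equal signs carry little information.

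Among the inhibitors of clotting, 4 of the 6 hepatocyte-made genes had positive ratios, and both genes of endothelium had negative ones. Proc, the precursor of activated protein C, which inactivates F5, had signals of 10462 (wild type) and 17998 (knockout), 1.72-fold higher. Serpind1, heparin cofactor II, had 8116 and 12964, 1.60-fold higher, and Proz, protein Z, which helps to inhibit activated F10, had 6729 and 10266, 1.53-fold higher. Serpinc1, antithrombin, had 35763 and 45400.4, 1.27-fold higher.

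Pros1, protein S, the cofactor of activated protein C, had 2689 and 2395, a log2 ratio of -0.17. Serpina10, the inhibitor that protein Z assists, had 8710 and 8674, a log2 ratio of -0.01. Both turned positive when the arrays were scaled on their poly-A controls. Proc and its cofactor Pros1 thus had opposite signs, and Proz was higher while the ratio of Serpina10 was near 0.

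Tfpi, the inhibitor of the tissue factor complex, which endothelium makes, had signals of 455.5 (wild type) and 217.3 (knockout), 2.10-fold lower. Its 3 other probe sets had log2 ratios from -0.73 to -0.37, so that its 4 probe sets had the same sign and 1 of them passed 2-fold. That probe set did so under 3 of 6 scalings. Thbd, thrombomodulin, the endothelial receptor that turns thrombin towards protein C, had 273.3 and 225.7, a log2 ratio of -0.28. The median of the endothelial markers was -0.25.

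Carboxylation of glutamate with vitamin K is needed by 7 of the members, F2, F7, F9, F10, Proc, Pros1 and Proz. Of these, 6 had positive ratios, with a median of 0.61 and none past 2-fold. Of the enzymes of that step, Vkorc1, which recycles the vitamin, had signals of 13161 (wild type) and 19570.0 (knockout), a log2 ratio of 0.57. Ggcx, the carboxylase, had a log2 ratio of -0.24 on its brightest probe set and 0.72 on another. Vkorc1l1, a relative of Vkorc1, had 0.22, and -0.03 on another.

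In fibrinolysis, Plg, plasminogen, had signals of 26406 (wild type) and 43774 (knockout), 1.66-fold higher. Serpinf2, the plasmin inhibitor, had 8624 and 10898, 1.26-fold higher. Genes outside the member list that start plasmin formation or hold plasminogen at cell surfaces had negative ratios. Of 4 measured, 3 were at least 2-fold lower: Anxa2 and S100a10, which form a plasminogen receptor, with log2 ratios of -3.23 and -1.48, and the plasminogen activator Plat, with signals of 551.3 and 68.6, 8.04-fold lower. The other probe sets of S100a10 had -1.91 and -0.23, so its call depends on the probe set, and a second probe set of Anxa2 had -1.77. Plaur, the urokinase receptor, had -0.77. Beside them, 2 of 3 neutrophil markers were lower while Csf3r was higher (0.52), and the part of these markers was not tested. The median log2 ratio of the 4 was -2.24, beside -1.85 for the stellate cell and fibroblast markers, whose part in it was not tested.

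Of 10 other measured genes of clotting and platelet adhesion, 3 were at least 2-fold lower and 0 higher. They were Anxa5, a phospholipid-binding protein that covers clotting surfaces (-1.71), Vwf, the endothelial protein that holds platelets and carries F8 (-1.20), and F13a1, the catalytic partner of F13b (-1.05). F8 itself had a log2 ratio of 0.33 and the plasma protein Hrg 0.35. F13a1 had low signals, 139.1 (wild type) and 67.1 (knockout) on its 1 probe set, and was past 2-fold under 5 of 6 scalings. The subunits of the crosslinking enzyme, F13a1 and F13b, thus had opposite signs. The thrombin receptor F2r had signals of 7989 and 4123, 1.94-fold lower, and past 2-fold under 4 of 6 scalings, and F2rl2 had a log2 ratio of 0.55.

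**Figure D3:**
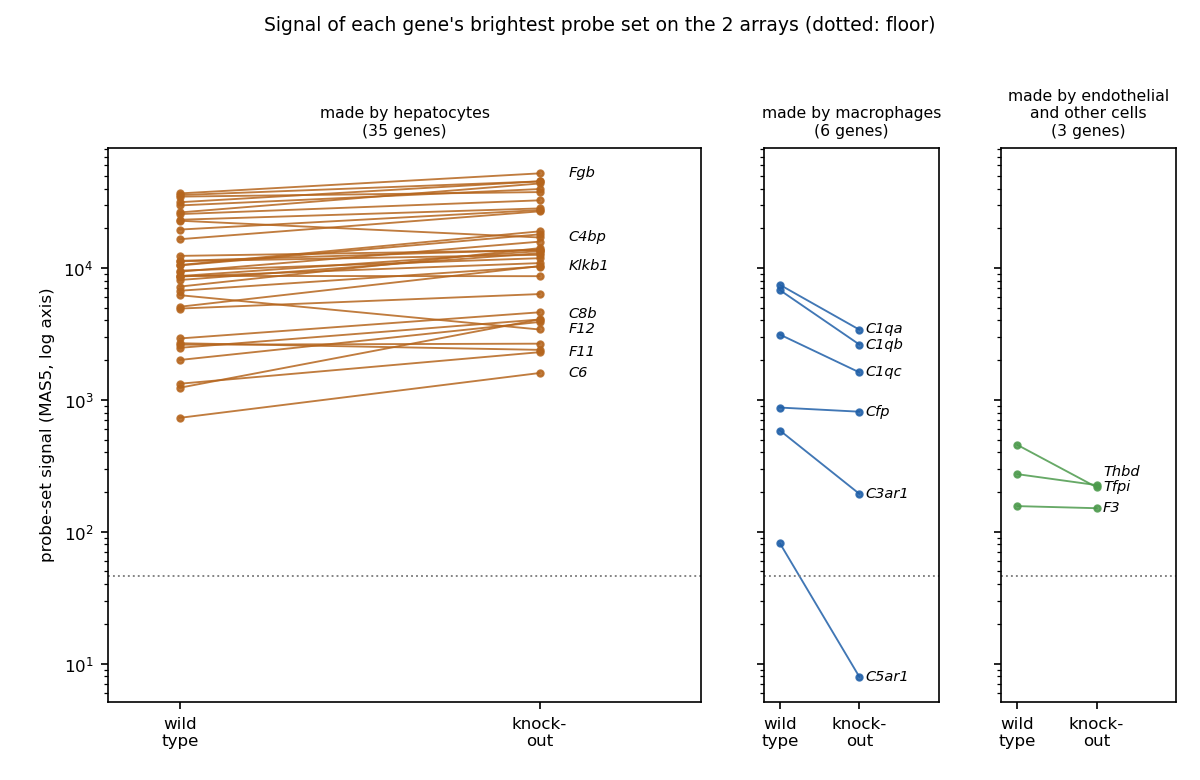
Probe-set signal on a log axis in the wild-type and knockout arrays for 35 hepatocyte-made, 6 macrophage-made and 3 endothelial or other genes, each line joining a gene's values; the dotted line is the floor of 46.5. Most hepatocyte-made lines climb slightly while F12 and C4bp descend, and the C1q chains and C3ar1 descend steeply.

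Within the classical route of complement, the C1q chains were lower and C2 and C4 were not. C1q is a bundle of 3 kinds of chain encoded by neighbouring genes on chromosome 4. C1qa had signals of 7450 (wild type) and 3408 (knockout), 2.19-fold lower. C1qb had 6790.5 and 2629, 2.58-fold lower, and C1qc had 3125 and 1617, 1.93-fold lower. The 3 probe sets of C1qb had log2 ratios of -1.37, -1.71 and -1.48. The chains thus lay at 45.8%, 38.7% and 51.7% of wild type. C1qb was past 2-fold under 6 of 6 scalings, C1qa under 5 and C1qc under 2.

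C1q works with proteases and substrates that hepatocytes make, and these did not share its difference. C2, the protease of the classical C3 convertase, had 2621 and 2668, a log2 ratio of 0.03 that spanned -0.11 to 0.21 over scalings, and its other 2 probe sets gave 0.04 and 0.11. The probe set shared by C4a and C4b had 21126 and 22271, a log2 ratio of 0.08. C1ra, a protease of the C1 complex, had a log2 ratio of 0.42 and its partner C1s1 had -0.04; both have close copies that the same probes could read.

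The lectin route had 4 of 4 genes with positive ratios and none past 2-fold. Masp2, the protease that cleaves C4 and C2, had signals of 2008 (wild type) and 3899 (knockout), 1.94-fold higher, and its second probe set gave a log2 ratio of 1.01. Mbl2, a mannose-binding lectin, had 16542 and 26905, 1.63-fold higher, and Mbl1, its relative, had 4927 and 6345, 1.29-fold higher. Masp1 had 2923 and 4615, a log2 ratio of 0.66, on its brightest probe set. Its 3 other kept probe sets had -0.46, -0.14 and -0.12. Masp1 gives several proteins by alternative splicing, but which form each probe set reads is not known here, and averaging the 4 probe sets gave -0.02.

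Among recognition molecules of this route outside the list, Fcna, a ficolin known from liver macrophages, had signals of 1248 and 2569, 2.06-fold higher. Its log2 ratio ranged from 0.91 to 1.23 over scalings and was past 2-fold under 4 of 6. The collectin Colec10 had 0.75 and its partner Colec11 had -0.29. Of 8 measured complement proteases and components outside the list, Fcna was the 1 past 2-fold. Hc, which encodes component C5, had 0.43.

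Properdin and factor B act in the alternative route, which amplifies C3 cleavage. Cfb, factor B, had signals of 9552 (wild type) and 11873 (knockout), 1.24-fold higher. Cfp, properdin, made by myeloid cells, had 874.4 and 813.5, a log2 ratio of -0.10 that ranged from -0.24 to 0.08 over scalings. Properdin was thus the macrophage-made gene that did not share the difference of the C1q chains. Its dimmer probe set, below the filter, had 96.3 and 31.4.

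The terminal components, which assemble into the membrane pore, had the highest ratios of any role, with a median log2 ratio of 0.97 over 5 genes and 2 past 2-fold. C8b, the beta chain of the eighth component, had signals of 1237 (wild type) and 4074 (knockout), 3.29-fold higher, the highest of all members. C8a, its neighbour in the genome and partner chain, had 7234 and 14149, 1.96-fold higher, and C8g, the small gamma chain, had 10542 and 18969, 1.80-fold higher. C6 had 731.0 and 1598, 2.19-fold higher. C9, which polymerises into the pore wall, had 12363 and 13647, a log2 ratio of 0.14. C9 was therefore apart from the other 4, and was negative under 2 of 6 scalings.

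C8b was past 2-fold under 6 of 6 scalings. A further setting, which leaves out probe sets of a type that can match several transcripts, gave C8b no value. The only probe set of C8b is of that type, as are those of C8g and Serpina10. C6 was past 2-fold under 5 of 6 scalings, the exception being scaling on the hybridisation controls. Klkb1, the remaining hepatocyte-made gene past 2-fold, was so under 2 of 6, as deposited and with poly-A controls. Its call therefore depends on the scaling. C8a and Masp2, just short of 2-fold, passed it under 1 of 6, when arrays were scaled on poly-A controls.

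Of the fluid-phase regulators, Cfi, the protease that degrades activated C3 and C4, had signals of 25652 (wild type) and 32612 (knockout), 1.27-fold higher. Serping1, the inhibitor of the C1 proteases and of activated F12, had 23239 and 28325, 1.22-fold higher. C4bp, the cofactor that helps Cfi to degrade C4, had 22840.0 and 17055, 1.34-fold lower, and was the second lowest hepatocyte-made gene. Its log2 ratio of -0.42 stayed between -0.63 and -0.24 over scalings. Of 7 regulators outside the list, none was past 2-fold, and Cfhr2, a relative of factor H, was highest at 0.84.

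C3ar1, the receptor for the anaphylatoxin of C3 on myeloid cells, had signals of 585.2 (wild type) and 193.8 (knockout), 3.02-fold lower and the lowest of all members. Its 3 probe sets had log2 ratios of -1.72, -1.59 and -1.39. C5ar1, the receptor for the anaphylatoxin of C5, had 81.4 and 7.93, the latter below the floor of 46.5. It was at least 1.75-fold lower on this probe set, and its other probe set lay below the floor on both arrays (38.9 and 16.8). Neither passed the filter, and at these signals the presence of C5ar1 on either array is not shown.

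Other complement receptors differed in both directions. Of 5 measured outside the list, 3 were at least 2-fold lower: Cd93 (-2.34), Itgax (-1.78) and Itgb2 (-1.17), of which Itgax and Itgb2 pair as a receptor for cleaved C3. Vsig4, the complement receptor of resident liver macrophages, had signals of 3254 and 5838, 1.79-fold higher. Beside the lower receptors, C3ar1 included, macrophage markers went both ways and 2 of 3 neutrophil markers were lower. The part of these markers was not tested.

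**Figure D4:**
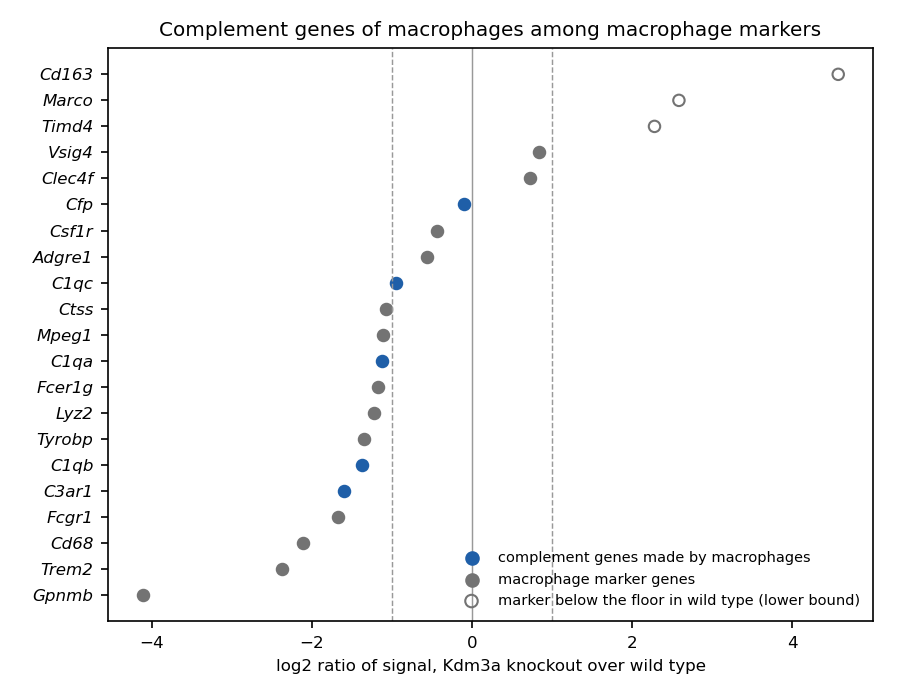
Log2 ratio of knockout over wild-type signal for the 5 complement genes made by macrophages that passed the filter and for 16 macrophage markers; open circles are markers whose wild-type signal lay under the floor and whose ratios are lower bounds. The C1q chains and C3ar1 lie among the lower markers such as Ctss and Fcgr1, and Cfp lies between Csf1r and Clec4f.

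Set among the macrophage markers, the C1q chains lay in the middle of the list. Ctss (-1.08), Mpeg1 (-1.12), Fcer1g (-1.18), Lyz2 (-1.23) and Tyrobp (-1.36) spanned nearly the same range as C1qa, C1qb and C1qc. The receptor gene Csf1r (-0.44) and Adgre1 (-0.56) were less low, and Cd68 (-2.11), Trem2 (-2.38) and Gpnmb (-4.12) were lower than any member. Fcgr1 had -1.68 on its brightest probe set, beside -1.59 for C3ar1. A second probe set of Fcgr1 had -0.43 and another of C3ar1 had -1.72, so their order depends on the probe set. Markers of resident macrophages were higher. Clec4f had 0.73, and Cd163, Marco and Timd4, whose wild-type signals lay under the floor, were at least 23.9-fold, 6.01-fold and 4.86-fold higher. Those 3 passed the filter through the knockout array alone, so they had to differ.

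Receptors and factors that control hepatocyte secretory genes had 1 of 13 past 2-fold, Il6ra, the interleukin 6 receptor, with 672.5 and 1475, 2.19-fold higher. Hnf4a had a log2 ratio of 0.50 (from -0.33 to 0.80 over its 4 probe sets), Il1r1 0.87 and Stat3 0.49. Foxa1 and Foxa2 had -0.01 and 0.05. Socs3, a feedback inhibitor of interleukin 6 signalling, had -0.45 (from -0.81 to -0.08 over its 3 probe sets). The list's median of 0.35 lay below the 0.50 of the hepatocyte-made members.

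The size of the hepatocyte-made shift depended on how the arrays were scaled. Its median was 0.28 after quantile normalization and 0.28 after loess, 0.37 with scaling on hybridisation controls and 0.69 with scaling on poly-A controls, against medians of 0.05, 0.02, -0.02 and 0.30 for the 20% of genes of highest signal. Bright probe sets as a whole had higher ratios. Over the 535 genes with a mean signal of at least 10000, a bound chosen after the values were seen, the median was 0.30. The 21 hepatocyte-made members in that band had a median of 0.49, and the 14 below it had 0.63. The 12 bright hybridisation controls, RNAs added equally to both samples, had log2 ratios from -0.10 to 0.28, with a median of 0.18. The 3 poly-A controls in the signal range of the 20% of genes of highest signal, RNAs added before labelling, had ratios from -0.25 to -0.15, and all 24 poly-A controls had a median of -0.18, so that both kinds of control differed in sign. The part of this signal dependence in the members' shift was not tested beyond these settings.

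**Figure D5:**
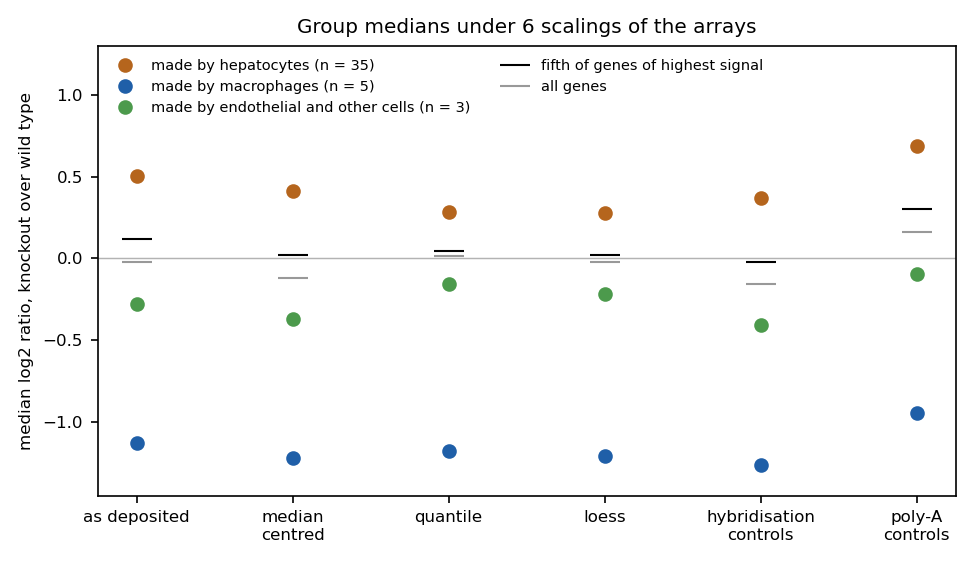
Median log2 ratio of knockout over wild-type signal under 6 scalings for the 35 hepatocyte-made, 5 macrophage-made and 3 endothelial or other members, with the medians of all genes and of the 20% of highest signal as dashes. The hepatocyte-made median runs from 0.28 to 0.69 and the macrophage-made median from -1.26 to -0.94, and the former stays above and the latter below both dashes.

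The sign was the same over these 6 scalings for all but 8 of the 43 genes. The exceptions were F3, F9, Pros1, Serpina10, Kng1, C2, C9 and Cfp, whose ratios lay near 0. The spread between probe sets, taken as the SD of log2 ratios among a gene's own probe sets, was 0.446 over 4958 genes. It was 0.186 over 599 genes with several probe sets that each lay in the signal range of the 20% of genes of highest signal. Dimmer probe sets of bright genes, such as those of F10 and Masp1, did not enter the second value. Of 10 members with several kept probe sets, 8 had a single sign, the others being F10 and Masp1.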

How the data were processed

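Total RNA of mouse liver (250 ng) was labelled with biotin for 1 Affymetrix array per genotype, per the labels' protocols. The deposited values are linear intensity per probe set, and MAS5 is named, without version or settings, per the submitters' processing notes; the genome build is not given in the sources used here. The mean after trimming 2% at each end was 500.004 on both arrays, and the values were used without further scaling. Of 45101 probe sets, 34945 named 1 gene in the platform annotation, 932 several and 9160 none, and 64 were controls. Intensities below 46.5, the 40th percentile of all values, were raised to it, and probe sets with a mean below the median mean, 73.7, were left out. The brightest probe set stood for each gene, and log2 ratios of knockout over wild type were called at 2-fold. The members and lists were chosen with earlier results of these data known. Every member is named, and up to 3 highest and 3 lowest genes of each list, besides marker genes; genes named beyond these were chosen after their values were seen. Scripts (python 3.11.15, pandas 2.3.3, numpy 2.4.6, statsmodels 0.14.6) were tested on simulated data. Alternatives numbered 14, among them loess with a span of 0.3. Protein sequences were not used here.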

Additional observations from a re-analysis of the deposited data

How the results depend on the processing

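The median of the hepatocyte-made genes (0.50) was 0.28 after quantile normalization, 0.28 after loess on signal, 0.37 with scaling on hybridisation controls and 0.69 with scaling on poly-A controls. Their count at least 2-fold higher (3) was 1 with hybridisation controls, 6 with poly-A controls, 16 at 1.5-fold and 1 at 3-fold. It was 2 after median centring, quantile normalization or loess. Their count lower (0) was 1 at 1.5-fold. The macrophage-made count lower (3) was 1 at 3-fold and 2 with poly-A controls. It was 4 at 1.5-fold, after median centring and with hybridisation controls. Poly-A scaling shifted the median of all genes by 0.19 and hybridisation scaling by -0.14, and the cause of these differences was not tested. Lower genes made up 70.1% of all genes past 2-fold, 80.6% with hybridisation controls, 52.3% with poly-A controls and 78.0% after median centring. Counts over all genes, 448 higher and 1048 lower, were 1296 and 2038 at 1.5-fold, 102 and 409 at 3-fold, and 210 and 564 with the filter at the 70th percentile. With the floor at the 60th percentile they were 250 and 702, and with poly-A controls 707 and 775. Of 511 member values under alternatives, 1 moved by more than 0.446, the SD between probe sets over all genes, Masp1 with all its probe sets averaged. Most of these values could not have moved so far. The floor and filter settings left the ratio of every member they kept unchanged. Averaging or dropping probe sets could not move genes with 1 probe set. Scaling on controls or medians shifted all members alike, by less than 0.446. The count of 1 therefore says little about stability. By the smaller SD of 0.186 among bright probe sets, 32 values of 20 members moved, among them F2 and Fgb after quantile normalization (0.11 and 0.22). No paired analysis was possible because each genotype has 1 array. Differences between genotypes cannot be told apart from differences between these livers or arrays. Among members, the signals of F3, Thbd and C5ar1, and of C3ar1 and Tfpi in the knockout array, lie nearest the floor. Of these, C3ar1 and Tfpi were called at least 2-fold lower.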
